A study of Mus musculus with 6 samples.

Results

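The Notch ligands and receptors were followed in somite-level tissue of mouse embryos with intact or disrupted Dll3. The set is the 9 genes Dll3, Dll1, Dll4, Jag1, Jag2, Notch1, Notch2, Notch3 and Notch4. Every probe set was taken that the platform annotation assigns to exactly 1 gene symbol among these 9. This gave 16 probe sets of the 22626 tested, for 9 genes of 12393: 1 probe set each for Dll3 and Dll1 and 2 for each of the other 7 genes. No member was missing from the array, and no filter on low values was applied.

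The wild-type pools held tissue of Dll3+/+ embryos, and the mutant pools tissue of embryos homozygous for the Dll3 allele that the labels name both tm1Rbe and neo. The labels give c57bl/6 as the strain of both groups, and all embryos were collected at 9.5 days post coitum. The tissue ran from the otic placode to the border between the presomitic mesoderm and the newest somite, without heart and endoderm, so neural tube, vessels and surface ectoderm of that level stayed in it. The labels describe 3 biological replicate pools per genotype, and each of the 6 pools was hybridised to 1 Affymetrix MOE430A array. The number of embryos in a pool is not stated in the labels, and p-values measure the spread between these pools.

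Notch signalling runs between touching cells: a ligand on one cell binds a receptor on its neighbour, the receptor is cut, and its intracellular part enters the nucleus and switches on target genes with the DNA-binding protein Rbpj. Dll1, Dll4, Jag1 and Jag2 activate receptors in this way. Dll3 is a divergent ligand that stays largely inside the cell and is known to inhibit Notch signalling there. In the paraxial mesoderm, waves of Notch activity space the somites, and loss of Dll3 in mice gives irregular somites, vertebrae and ribs.

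From the values, each deposited number reads as a ratio to a reference of the same probe set. The ratios compare pools and hold no signal level. They therefore give no order of abundance between the 9 genes, and do not show which members, or which defining markers of somite tissue, were above background. All 16 member rows had a median of 1 over the 6 pools, within 0.0015, so for them a value of 1 is the probe set's own middle level. In 1497 of all 22690 rows the median was below 1. In tissue pools, fewer cells of a type and less RNA per cell cannot be told apart.

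The 9 genes differed little between the genotypes. None of the 16 probe sets and none of the 9 genes passed an adjusted p of 0.05 in limma, against a background of 0% of the 22626 probe sets and 0% of the 12393 genes. None of the members had an unadjusted p under 0.05 either, against 2.63% of all probe sets and 2.67% of all genes. In none of them did the 3 mutant pools lie all above or all below the 3 wild-type pools, which occurred in 7.46% of all probe sets and 7.46% of all genes. By gene, the mutant to wild-type fold ran from 0.936 for Jag2 to 1.07 for Notch4. In the fit without a covariate, the 95% intervals of all 9 genes lay between 0.827-fold and 1.22-fold. For each gene a change beyond those bounds, on the scale of the deposited ratios, lay outside its interval in that fit. The intervals of the 16 single probe sets were wider, between 0.727-fold and 1.39-fold. With the sex score described below as a covariate, the standard errors of the genes were larger. Each exact permutation test over the 6 pools gave p = 0.2 or higher, where the smallest value that 3 against 3 pools allow is 0.1.

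**Figure D1:**
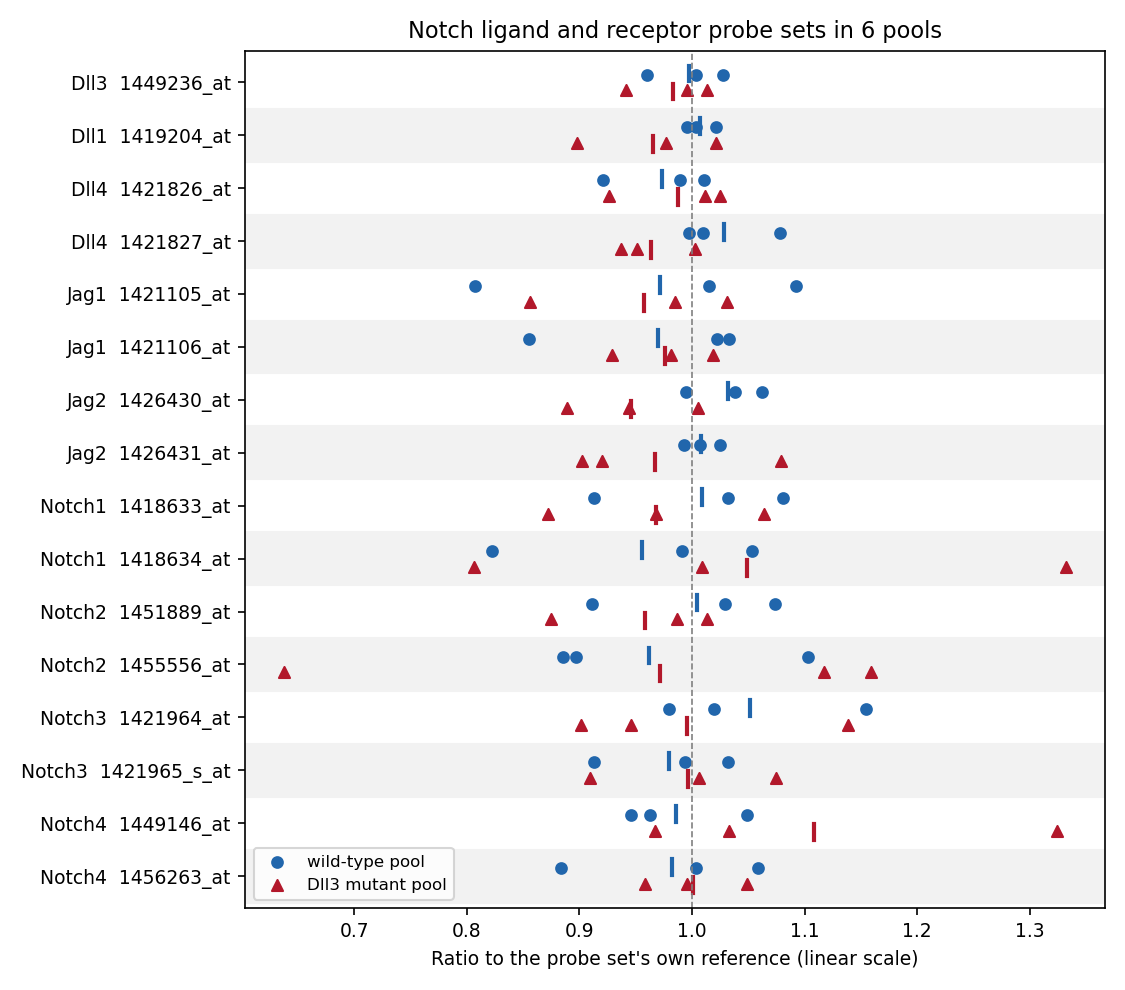
Deposited ratio (linear axis; 1 is the middle level of that probe set) for each of the 16 probe sets, with 3 wild-type pools as circles, 3 Dll3 mutant pools as triangles and the group means as vertical bars. In every row the circles and triangles overlap; the widest rows are 1455556_at of Notch2, from 0.638 to 1.159, and 1418634_at of Notch1, from 0.806 to 1.332.

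Dll3, the disrupted gene, was read by probe set 1449236_at. Values are given in the order of pools 1 to 3 here and for the genes that follow. Wild-type pools had ratios of 0.960, 1.004 and 1.028, and mutant pools had 0.996, 1.013 and 0.941. The highest value was in wild-type pool 3 and the lowest in mutant pool 3, with the other 4 pools between them. At the gene level the log2 difference between mutant and wild-type was -0.021 (SE 0.073, 95% interval -0.18 to 0.14; limma, adjusted p = 0.9997). That interval, from the fit without a covariate, spans 0.881-fold to 1.10-fold, so a fall in the deposited ratios beyond 0.881-fold lies outside it. Its spread within groups, 0.053 on the log2 scale, was low, at percentile 10.3 of all genes. No source used here places this probe set before or after the insertion, so Dll3 cannot serve as a check of the genotype labels.

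Dll1, the main activating Delta ligand of the paraxial mesoderm, gave ratios of 0.996, 1.004 and 1.021 with wild-type tissue, and of 0.898, 1.021 and 0.977 with mutant tissue. The wild-type pools were tightly grouped, at 1.01 ± 0.013 (SD, n = 3), and the mutant pools were wider, at 0.965 ± 0.062 (SD, n = 3). Mutant pool 1 set most of the difference, since mutant pool 2 equalled the highest wild-type pool. The log2 difference was -0.063 (SE 0.076, 95% interval -0.23 to 0.11; limma, adjusted p = 0.9997), and without mutant pool 1 it was -0.012.

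Dll4, best known as the Delta ligand of arterial and sprouting endothelium, had a pair of probe sets. Probe set 1421826_at was at 1.011, 0.989 and 0.921 in wild-type and 1.025, 0.926 and 1.012 in mutant pools. Probe set 1421827_at was at 1.010, 1.078 and 0.997 in wild-type and 0.951, 0.937 and 1.003 in mutant pools. The first gave a log2 difference of 0.020 (SE 0.088) and the second of -0.093 (SE 0.084), and in both the groups overlapped. Their mean gave -0.037 for the gene (SE 0.074, 95% interval -0.20 to 0.13).

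Jag1, a Jagged ligand of vessels, neural tube and other tissues, showed no difference in the means. The mean of its 2 probe sets gave ratios of 1.06, 0.932 and 0.908 for wild-type and of 0.979, 1.002 and 0.916 for mutant pools. The log2 difference was -2.9e-05 (SE 0.084), the smallest among the members, with a 95% interval of -0.19 to 0.19. Wild-type pool 1 was the highest and wild-type pool 3 the lowest of the 6, so the wild-type range enclosed every mutant pool.

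Jag2, the second Jagged ligand, had the smallest p of the 9 genes and still missed the threshold. Probe set 1426430_at was at 1.038, 1.062 and 0.995 in wild-type pools and 0.889, 0.944 and 1.005 in mutant pools. Probe set 1426431_at was at 1.025, 0.993 and 1.007 in wild-type pools and 0.902, 1.079 and 0.920 in mutant pools. In the first, only mutant pool 3 reached the wild-type range, and it lay above wild-type pool 3. In the second, mutant pool 2 was the highest of all 6 while the other 2 mutant pools were the lowest. For the gene the log2 difference was -0.096 (SE 0.075, 95% interval -0.26 to 0.072; limma, adjusted p = 0.9997), and 24.97% of all genes had a larger difference in either direction.

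All 5 ligands thus had values at or below 0, from -0.096 to -2.9e-05, with a median log2 difference of -0.037, while the median of all 12393 genes was 0.0035 and 48.1% of them were below 0. No ligand differed beyond the spread between pools. In the mean of the ligands on the log2 scale, mutant pools 1 and 3, at -0.074 and -0.059, lay below the wild-type range of -0.026 to 0.016, and mutant pool 2, at -0.0076, lay inside it.

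**Figure D2:**
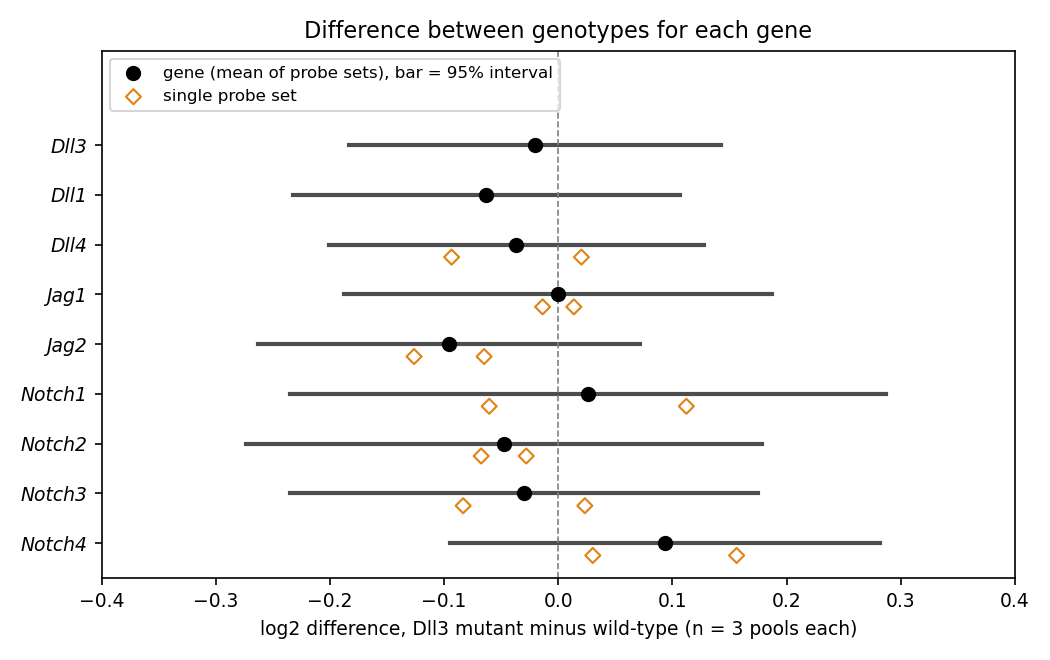
log2 difference between Dll3 mutant and wild-type pools (x axis, n = 3 pools each) for each of the 9 genes, as a black point with its 95% interval from limma; open diamonds are the single probe sets of genes that have 2. Every interval includes 0, and for Dll4, Jag1, Notch1 and Notch3 the diamonds lie on opposite sides of it.

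Among the receptors, Notch1, the receptor best known from the segmenting mesoderm and neural tube, varied most between pools. Probe set 1418633_at was at 1.081, 1.032 and 0.913 in wild-type and 0.872, 1.064 and 0.968 in mutant pools, a log2 difference of -0.061 (SE 0.104). Probe set 1418634_at was at 0.822, 1.053 and 0.991 in wild-type and 0.806, 1.332 and 1.009 in mutant pools, a log2 difference of 0.11 (SE 0.163). Both had mutant pool 1 as the lowest of the 6, and mutant pool 2 was the highest of all in the second. The gene-level difference was 0.026 (SE 0.118, 95% interval -0.24 to 0.29). It rested on mutant pool 2: without that pool it was -0.10.

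Notch2, a broadly expressed receptor, had the widest single probe set of the 16. Probe set 1455556_at was at 0.897, 0.885 and 1.103 in wild-type and at 0.638, 1.117 and 1.159 in mutant pools. The highest pool was 1.82 times the lowest, and the spread within groups was at percentile 99.6 of all probe sets. Mutant pool 1 was far below the others, the first and second wild-type pools came next, and the remaining 3 pools, of both genotypes, were high. The same 3 low pools stood apart on the first principal component of the probe sets outside the 9 genes, where mutant pool 1 scored -15.2 and wild-type pools 1 and 2 scored -11.5 and -8.30, against 5.37 to 18.2 in the other 3. In each genotype pool 1 scored lowest and pool 3 highest on this component. It held 42% of the variance, and each side of it held both genotypes. Its part in the values of Notch2 was not tested. Probe set 1451889_at of the same gene was at 1.029, 1.074 and 0.911 in wild-type and 1.013, 0.987 and 0.875 in mutant pools, without the low value in mutant pool 1. The gene-level difference was -0.048 (SE 0.102, 95% interval -0.27 to 0.18), and without mutant pool 1 it was 0.071.

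Notch3, a receptor of mural cells around vessels and of neural progenitors, was at 1.09, 1.01 and 0.946 in wild-type and 0.927, 0.952 and 1.11 in mutant pools as the mean of its probe sets. Mutant pool 3 was the highest and mutant pool 1 the lowest, so the mutant pools enclosed the wild-type range. The log2 difference was -0.030 (SE 0.092, 95% interval -0.23 to 0.17), with -0.083 from probe set 1421964_at and 0.023 from 1421965_s_at. The suffix _s_at marks a probe set that may also match related transcripts.

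Notch4, the receptor best known from endothelium, had the largest positive difference of the 9. Probe set 1449146_at was at 0.946, 0.963 and 1.049 in wild-type and 0.967, 1.033 and 1.324 in mutant pools. Only mutant pool 3 lay above the wild-type range. The second probe set, 1456263_at, was at 1.059, 0.884 and 1.004 in wild-type and 1.049, 0.958 and 0.996 in mutant pools, with all 3 mutant pools inside the wild-type range. For the gene the log2 difference was 0.093 (SE 0.085, 95% interval -0.095 to 0.28; limma, adjusted p = 0.9997), and without mutant pool 3 it was 0.027. The 19 endothelial markers had a mean log2 level of -0.040 to 0.0043 in the wild-type and -0.033 to 0.067 in the mutant pools, also highest in mutant pool 3. Of these markers 12 were higher and 7 lower in the mutants, and none passed the adjusted threshold. Single endothelial markers differed: Cldn5 had its highest ratio in mutant pool 3 (1.258), while Kdr and Robo4 had their lowest there (0.909 and 0.963). The mean of the 13 neural progenitor markers was also highest in this pool, at 0.12 on the log2 scale. The part of either list in the value of Notch4 was not tested.

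The receptors had a median log2 difference of -0.0021, with Notch1 and Notch4 above 0 and Notch2 and Notch3 below. They varied more between pools than the ligands did. The highest pool was 1.28 times the lowest for the median receptor and 1.14 times for the median ligand, against 1.21 times for the median of all genes. This contrast of 4 with 5 genes is a description, and the probe sets differ in unknown signal level.

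**Figure D3:**
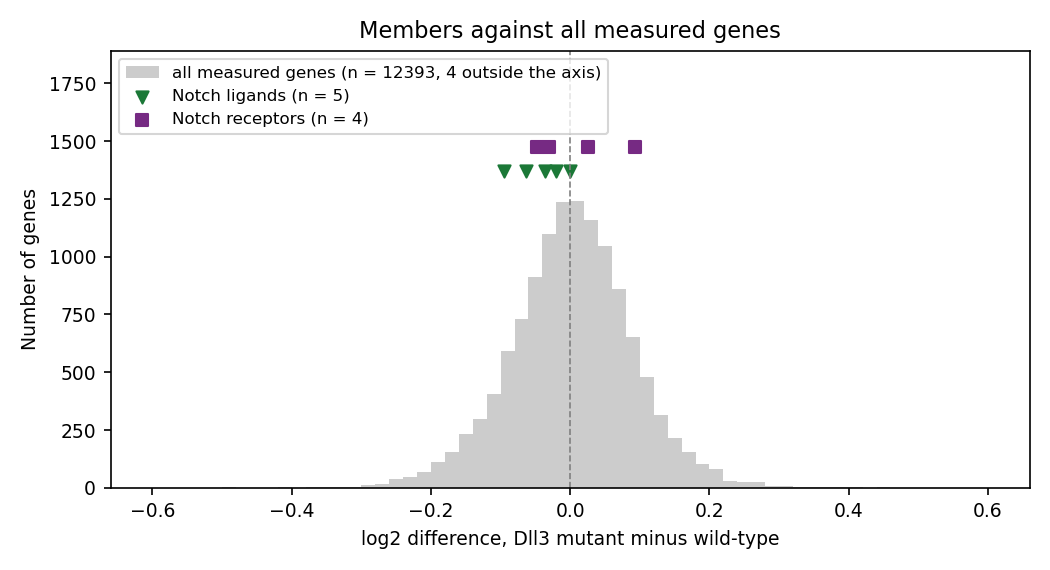
Histogram of the log2 difference between Dll3 mutant and wild-type pools over 12393 genes (y axis, number of genes), with the 5 ligands as triangles and the 4 receptors as squares above it. All 9 members lie within 0.1 of 0, in the central part of the distribution.

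Seen against the whole array, and without a covariate, none of the 9 genes had an absolute log2 difference over 0.1 (a fold of 1.07), which 23.1% of all genes did. Of the 16 single probe sets 3 did (1426430_at of Jag2, 1418634_at of Notch1 and 1449146_at of Notch4), against 6517 of all 22626. The members' median log2 difference was -0.030, with 7 genes below 0, counting Jag1, and 2 above. Their standard errors ran from 0.073 to 0.118, around a median of 0.084 that was close to the 0.087 of all genes. The eBayes step draws these errors towards a common value, so this closeness says little about precision. Before that step, the spread within groups ran from percentile 10.3 of all genes for Dll3 to 90.3 for Notch1. The array did record larger differences in this tissue: Uncx, a homeobox gene of the caudal half-somite, was at 1.24, 1.437 and 1.263 in wild-type and 0.694, 0.536 and 0.760 in mutant pools. The difference for Uncx on the log2 scale, -0.998 (SE 0.124), also missed the threshold (limma, adjusted p = 0.116 over all genes). Over all probe sets it passed with the replicate number as a block (limma, adjusted p = 0.0379) and with array weights (limma, adjusted p = 0.0309).

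Mutant pool 1 was the lowest of the 6 pools in 5 of the 9 genes, namely Dll1, Jag2, Notch1, Notch2 and Notch3. It was the lowest in 20.96% of all genes. On the log2 scale the mean of the receptors was -0.17 in this pool, 0.061 and 0.085 in the other mutant pools and -0.028 to -0.0038 in the wild-type pools. Without mutant pool 1, 5 of the 9 genes were below 0, and again none passed. The mean log2 level of the 13 neuron markers was likewise lowest in mutant pool 1, at -0.18, and highest in mutant pool 2, at 0.28. These pools also had the lowest and highest values of Notch1. Single markers did not all follow the mean: Mnx1 was lowest in mutant pool 2, at a ratio of 0.683, and Tubb3, Dcx and Ina in wild-type pool 3. The mean of the 13 neural progenitor markers had another order, lowest in wild-type pool 2, at -0.099, and highest in mutant pool 3, at 0.12. The part of the neuron markers in the pattern was not tested.

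The 9 genes did not share one pattern over the pools. Over the 36 pairs of genes, Pearson's r across the 6 pools ran from -0.886 for Dll3 with Notch3 to 0.932 for Dll1 with Notch2, with a median of 0.046 and 21 pairs above 0. Dll1 also ran with Jag2 (r = 0.908) and Notch1 with Notch2 (r = 0.823). All 4 of these genes had their lowest value in mutant pool 1. These coefficients come from 6 shared arrays and are a description.

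Probe sets of the same gene did not track each other closely. For the 7 genes with a pair, r across the 6 pools ran from -0.626 for Notch2 to 0.651 for Notch3, with a median of 0.230, while the median over 3057 genes with 2 probe sets was 0.231. It was below 0 for 3 of the 7 genes (Jag1, Notch2 and, at -0.0020, Notch4), and for 35.4% of the 3057. The gap between the differences from both probe sets of a gene was 0.027 for Jag1 and 0.17 for Notch1 at the extremes, with a median of 0.11 against 0.086 over all such genes. In 3 of the 7 genes both had the same sign, against 53.4% overall. The median gap was wider than any of the 9 gene-level differences between genotypes, which lay between -0.096 and 0.093.

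**Figure D4:**
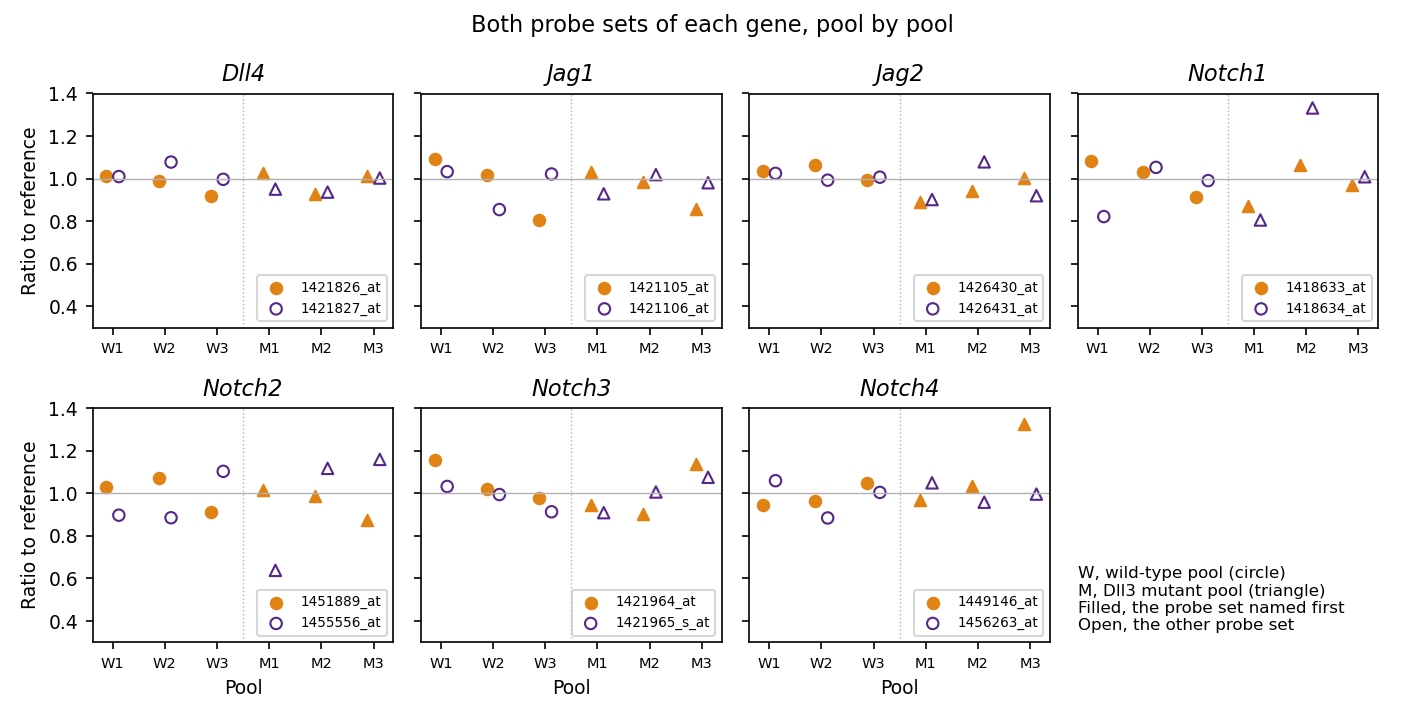
Ratio to reference (y axis, linear) in the 3 wild-type pools (W, circles) and 3 Dll3 mutant pools (M, triangles) for the 7 genes with 2 probe sets, 1 filled and 1 open. Probe sets of a gene lie apart, for example, in mutant pools 1 (1.013 against 0.638) and 3 (0.875 against 1.159) for Notch2, mutant pool 3 for Notch4 (1.324 against 0.996), and wild-type pool 1 (1.081 against 0.822) and mutant pool 2 (1.064 against 1.332) for Notch1.

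The genes whose level ran most like that of Dll3 over the 6 pools were Ube2l6 (r = 0.985), Trim6 (r = 0.974) and Slc17a2 (r = 0.971), of 7 genes with r over 0.95. For Jag2 they were Mllt11 (r = 0.997), Prkar2a (r = 0.984) and Hoxc8 (r = 0.984), of 15. For Notch4 they were Mmp14 (r = 0.999), Mcm5 (r = 0.995) and Eif4ebp1 (r = 0.994), of 37. With 6 pools and 12393 genes, some coefficients of this size are found for every member, and they are given as a description.

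The rest of the Notch pathway was followed through 6 lists by role, with 68 measured genes outside the 9. None passed the adjusted threshold in limma. An unadjusted p under 0.05 was found for 2 of the 68, 1 in each direction, against 2.67% of all genes, and in 9 the groups did not overlap, against 7.46%. Of the 68 genes, 29 had a positive and 39 a negative log2 difference, with a median log2 difference of -0.011.

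Among other ligands and genes that handle ligands, 2 of 10 were higher and 8 lower. Dlk1, an imprinted non-canonical ligand, was at 1.028, 0.852 and 0.636 in wild-type and 0.972, 1.074 and 1.107 in mutant pools. The wild-type pools spread widely and mutant pool 1 lay among them. The log2 difference of Dlk1, 0.35 (SE 0.148; limma, adjusted p = 0.9997), was the largest of the 68. It was 0.17 without wild-type pool 3, and -0.17 with the sex score described below as a covariate. Mib1, the ubiquitin ligase that lets ligands be taken up by the sending cell, was at -0.077 (SE 0.069), with groups that did not overlap.

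In receptor glycosylation 4 of 5 genes were higher and 1 lower. The lower one was Pofut1, which adds the O-linked fucose that Notch receptors need. It was at 1.04, 1.14 and 1.01 in wild-type and 0.942, 0.846 and 0.988 in mutant pools, so that every mutant pool lay below every wild-type pool. The log2 difference of Pofut1 was -0.20 (SE 0.086; limma, adjusted p = 0.9997), and -0.25 to -0.14 with each pool left out in turn. Rfng, a Fringe enzyme that extends this fucose, was higher in every mutant pool than in any wild-type pool (0.16, SE 0.076), and Lfng, the Fringe gene that cycles in the presomitic mesoderm, was at 0.11 (SE 0.082).

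In receptor cleavage 3 of 7 genes were higher and 4 lower. Psen2, a catalytic subunit of gamma-secretase, was at -0.098 (SE 0.072), with groups that did not overlap. With probe sets of shared-sequence suffix (_x_at, _s_at or _a_at) left out, Psen2 was at -0.19 (limma, unadjusted p = 0.037). In that setting Rfng was at 0.18 (limma, unadjusted p = 0.046). Furin, which cuts the receptor during its maturation, was at 0.074 (SE 0.079). Furin was at 0.013 without mutant pool 3 and 0.12 without mutant pool 1. In receptor turnover and antagonists 7 of 13 were higher and 6 lower. Dtx3, of the Deltex family of ubiquitin ligases, was at 0.21 (SE 0.112) and Fbxw7, which marks the intracellular receptor for degradation, at -0.16 (SE 0.103). Dtx3 was at 0.13 without mutant pool 3 or without wild-type pool 3, and at -0.14 with the sex score as a covariate. Fbxw7 was at -0.041 without mutant pool 1 and at -0.033 with its probe sets of shared-sequence suffix (_x_at, _s_at or _a_at) left out. In the nuclear complex 6 of 19 were higher and 13 lower, with the co-repressor gene Spen at -0.21 (SE 0.113) and Hdac1 at 0.16 (SE 0.129). Spen was at -0.077 without mutant pool 1, and Hdac1 at 0.32 without wild-type pool 3 and from 0.072 to 0.091 without wild-type pool 1, wild-type pool 2 or mutant pool 2. With the sex score Spen was at -0.51, Hdac1 at 0.38, Fbxw7 at -0.24, Furin at 0.025 and Psen2 at -0.035. In the fit of all pools and all probe sets by genotype alone, none of these had an unadjusted p under 0.05.

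Target genes, the readout of receptor activity, were higher for 9 of 16 and lower for 7, with a median of 0.024. In 4 of the 16 (Efnb2, Hes3, Hes2 and Ccnd1) the groups did not overlap, against 7.46% of all genes. This list holds Lfng and Nrarp, which also stand in the glycosylation and turnover lists. Efnb2, an ephrin of the caudal half-somite and of arteries, was at 0.14 (SE 0.075) with every mutant pool above every wild-type pool, and Hes2 was at -0.095 (SE 0.070) with every mutant pool below. Neither passed (limma, adjusted p = 0.9997 for both). Hes3 was at 0.11 (SE 0.074), also with every mutant pool above every wild-type pool. Ccnd1, a cell cycle gene, was at -0.051 (SE 0.069) with every mutant pool below. Hes1 and Hes5, repressors that receptors switch on directly, were at 0.061 (SE 0.077) and 0.058 (SE 0.092). Hes7, the clock gene of the presomitic mesoderm, was at -0.015 (SE 0.085), and Hey1, Hey2 and Heyl were between -0.017 and -0.0094. The collected tissue ended at the border of the presomitic mesoderm, so Hes7 and Lfng were not read where they cycle.

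**Figure D5:**
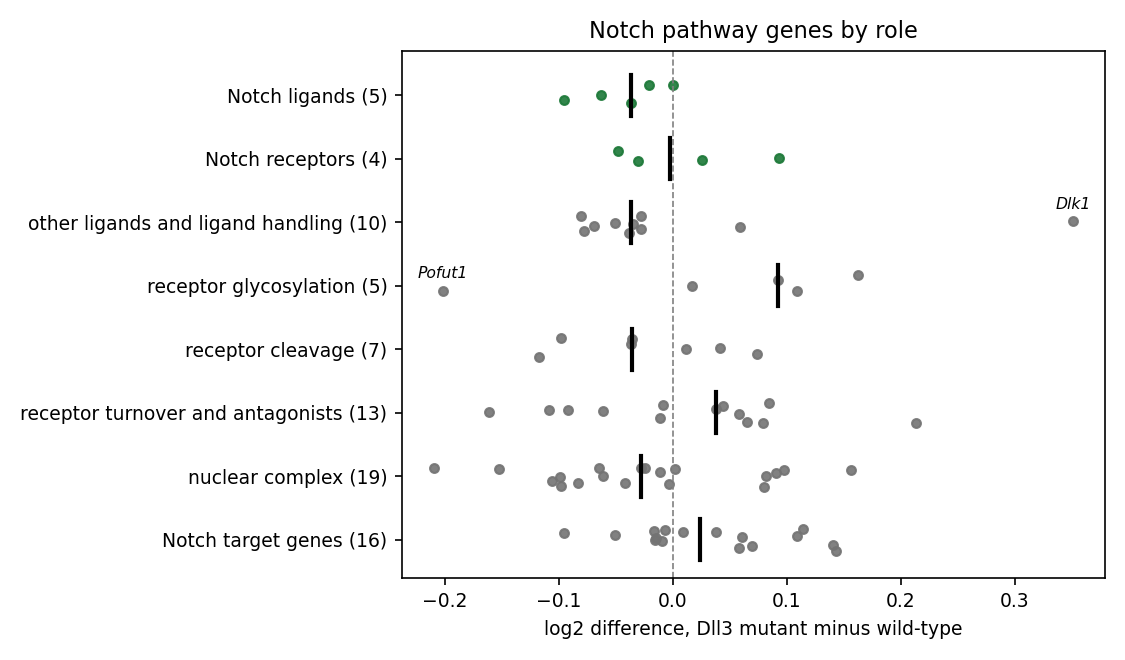
log2 difference between Dll3 mutant and wild-type pools (x axis) for each gene of the Notch pathway, by role, with the number of measured genes in brackets and the list median as a vertical bar; vertical scatter within a list is only for legibility. Ligands and receptors (green) lie between -0.096 and 0.093, and the 2 genes with an unadjusted p under 0.05, Dlk1 at 0.35 and Pofut1 at -0.20, are named.

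Markers of tissues that carry these ligands and receptors were compared as well. Neural progenitor markers were higher for 9 of 13 genes, at a mean log2 level of -0.099 to 0.042 in wild-type and -0.094 to 0.12 in mutant pools. Presomitic mesoderm markers, of a tissue at whose border the collected piece ended, were higher for 4 of 9. Somite markers were higher for 6 of 15. Surface ectoderm markers were higher for 7 of 9. All 9 blood markers were higher in the mutants, at a mean log2 level of -0.16 to -0.014 in wild-type and 0.014 to 0.26 in mutant pools. An unadjusted p under 0.05 was found for 5 of them, against 2.67% of all genes. In 5 the groups did not overlap, against 7.46% of all genes. For the counts by direction, 48.1% of all genes had a log2 difference below 0. No marker passed the adjusted threshold. The sex mix of the pools also differed: Xist minus the mean of 3 Y-linked genes was -1.73 to -0.085 in wild-type and 0.045 to 0.81 in mutant pools on the log2 scale. With this score as a covariate the log2 difference was -0.23 for Notch3, -0.18 for Jag2, -0.17 for Jag1, -0.16 for Notch2 and -0.11 for Dll1, all over 0.1 in size. It was 0.061 for Dll3 and -0.083 for Notch1, both of turned sign, -0.052 for Dll4 and 0.047 for Notch4. The standard errors in that fit ran from 0.138 for Dll3 to 0.216 for Notch1, against 0.073 to 0.118 without the score. The score did not overlap between the genotypes, so these values are poorly determined, and sex and genotype cannot be cleanly told apart. No member had an unadjusted p under 0.05 in that fit.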

How the data were processed

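Array values were available for 6 pools, 3 per genotype, from Affymetrix MOE430A arrays. What the authors deposited is a table of 22690 probe sets whose values read as a linear ratio between each pool and a reference of the same probe set. The file does not say so: the median over the 6 pools is 1 (within 0.0015) for 93.4% of rows, lower for 1497 and higher for 0. RMA and MAS5 appear, with neither version nor role, per the submitters' processing notes, and the scaling of the arrays is not stated there. Since the ratios hold no signal level, noise or compression of ratios near background could not be assessed, and neither a filter on dim probe sets nor a pseudocount was used.

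After removal of 64 control probe sets, log2 ratios of 22626 probe sets, and separately of 12393 genes, were fitted in limma 3.58.1 (R 4.3.3) by lmFit and eBayes with genotype as the sole term and no variance trend. Tests were two-sided, and p-values were adjusted over the whole table (Benjamini-Hochberg, threshold 0.05). A gene is the mean log2 ratio of its probe sets, shown per pool on the linear scale. Of the probe sets, 20380 carry 1 gene symbol in the platform annotation, 691 several and 1555 none; gene identifiers of 20351 were found in the RefSeq mouse table (GRCm38.p6), used only to update symbols. No build is named with the array data, and coordinates were left out. Precision is limited by the number of arrays. The fit was also run on simulated data with independent noise in each pool. Patterns shared between pools were not simulated, so no result here rests on that run. Figures were drawn with matplotlib 3.10.9.

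Genes named are the 9 members, per pathway list the gene of smallest p in each direction and those with an unadjusted p under 0.05, and for Dll3 and the 2 members of smallest p the 3 genes of highest r. Lfng, Ccnd1, Hes1, Hes3, Hes5, Hes7, the Hey genes, Uncx, Mnx1, Tubb3, Dcx, Ina, Cldn5, Kdr and Robo4 were added after their values were seen. Members and lists were chosen with earlier results of these data known. Whether same-numbered pools pair was checked: over all probe sets their deviations from the group means correlated at 0.37, -0.025 and 0.37, so the numbers were not taken as pairs. Alternatives were the replicate block, a variance trend, array weights, quantile normalization, median centring, rows with a median below 1 removed, probe sets ending in _x_at, _s_at or _a_at removed, the sex score as a covariate, pools left out, and the median or the most variable probe set of a gene.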

Additional observations from a re-analysis of the deposited data

How the results depend on the processing

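No member passed the adjusted threshold under any alternative run: over 153 alternative values of the 9 genes the lowest adjusted p in limma was 0.712, and over 239 of the 16 probe sets it was 0.659. None had an unadjusted p under 0.05 either. Dll1, Dll4, Jag2 and Notch4 kept their sign in all alternatives of the gene value, and the other 5 genes turned sign in 13 of the 153 values. The cause of the turns was not tested, beyond the fewer pools where a pool is left out. What signal over background would limit could not be read from ratios.

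The log2 differences that turned sign were as follows. With array weights they were 0.030 for Notch2, 0.17 for its probe set 1455556_at and -0.031 for 1421826_at of Dll4. With the sex score as a covariate they were 0.061 for Dll3 (1 probe set), -0.083 for Notch1, -0.13 for 1421106_at of Jag1, -0.023 for 1421826_at of Dll4, -0.16 for 1421965_s_at of Notch3, -0.050 for 1456263_at of Notch4, -0.17 for Dlk1 and -0.14 for Dtx3. Without both pools numbered 3 they were 0.033 for Dll3, -0.038 for 1421826_at and -0.083 for 1421965_s_at.

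With each pool left out in turn, Dll3 ran from -0.048 to 0.011, Jag1 from -0.044 to 0.069, Notch1 from -0.10 to 0.15, Notch2 from -0.12 to 0.071 and Notch3 from -0.11 to 0.024. Among single probe sets the ranges were -0.13 to 0.012 (1418633_at) and -0.075 to 0.29 (1418634_at) for Notch1, -0.14 to 0.077 (1421105_at) and -0.075 to 0.062 (1421106_at) for Jag1, -0.019 to 0.066 (1421826_at) for Dll4, -0.033 to 0.088 (1421965_s_at) for Notch3, -0.18 to 0.25 (1455556_at) for Notch2 and -0.044 to 0.087 (1456263_at) for Notch4.

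Over all probe sets, 595 had an unadjusted p under 0.05 and 0 passed. With the replicate number as a block these counts were 1072 and 1 (Uncx), and the block changed no call of a member. The standard error with the block was 0.084 for Notch1, 0.085 for Notch2 and 0.075 for Dll3, against 0.118, 0.102 and 0.073 without it. Wild-type pool 2 deviated together with mutant pool 1 (0.20) more than with mutant pool 2 (-0.025), so not every pool correlated best with its own number. With array weights the counts were 1770 and 1 (Uncx), and with the sex score 267 at an unadjusted p under 0.05. With each pool left out, 319 (without wild-type replicate 2) to 1229 (without wild-type replicate 3) had an unadjusted p under 0.05, and 0 to 1 passed (Xist, without wild-type replicate 1). Of the 68 other pathway genes, 2 had an unadjusted p under 0.05. This was 5 with array weights, where 1770 of the 22626 probe sets had one. It was 4 without both pools numbered 3, where 827 of the 22626 probe sets had one, and 0 to 2 with each pool left out. It was 3 with probe sets ending in _x_at, _s_at or _a_at left out, where 428 of the probe sets kept had one.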
